A study of Mus musculus with 4 samples.

Results

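Of 23282 gene symbols listed, 43 were counted in endothelial cells (ECs) of the brain parenchyma and at most marginally in ECs of the dura mater, the outermost of the meninges. They were chosen by raw count, as symbols with 64 or more counts in both brain EC libraries and 7 or fewer in both dura mater EC libraries. This pattern held for 47 of the 13660 symbols with any count (0.344%). Of these, Notum, Slc16a4, Slc44a5 and Cdkn2b were left out by name, with the families they belong to (Wnt targets, solute carriers and cell cycle inhibitors among them). The 43 genes were picked on the contrast between the tissues, so their fall from brain to dura mater is how they were found and is described here without a test.

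Both groups were ECs isolated from C57BL/6J mice 8 weeks of age, with 2 libraries of brain parenchyma ECs and 2 of dura mater ECs. Flow cytometry kept CD31+ CD45- TER-119- cells, and brain ECs alone were enriched on magnetic beads before the sort, so this step cannot be told apart from the tissue. Libraries read the 3′ ends of polyadenylated RNA and held 13518973 to 16096203 counts. The study used male mice, and the number of mice behind a library is not given in the sources used here.

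ECs of the brain form the blood-brain barrier, in which tight junctions close the gaps between cells and dedicated carriers move nutrients. Dural vessels lie outside this barrier, and many of them are fenestrated. Much of what separates brain ECs from other ECs is known to depend on Wnt/beta-catenin signaling. The 10 pan-endothelial genes checked (Pecam1, Cdh5, Kdr, Tie1, Tek, Erg, Emcn, Cldn5, Egfl7 and Esam) were each at 64 or more counts in the 4 libraries.

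None of the 43 genes stood in a list of 44 brain endothelial barrier genes, part of which are carriers that the rule leaves out by name. On that list 38 had 64 or more counts in both brain libraries. Since only 0.922% of all such symbols met the cutoffs, nothing is read from this absence. Of that list 40 were tested, 9 fell in dura mater ECs and 0 rose (edgeR quasi-likelihood test, adjusted p under 0.05, background 0.182% lower and 0.428% higher). Those that fell were Cldn5, Tfrc, Mal, Slc2a1, Mfsd2a, Cxcl12, Slco1a4, Lsr and Itm2a. Of the same list, 30 were lower and 1 higher at an unadjusted p under 0.05, and DESeq2 called 33 lower and 1 higher. None of the 43 stood among 44 Wnt receptors and regulators either. Only 11 of these 44 had 64 or more counts in both brain libraries, and 0.922% of all such symbols met the cutoffs. Nothing is therefore read from the absence of members. The Wnt target Notum met the cutoffs (3643 and 1015 counts against 0 and 0) and was left out by name. Of the 44, 19 were tested and 0 passed (edgeR). At an unadjusted p under 0.05 were 0 lower and 3 higher (2.97% and 7.04% of all genes), and in DESeq2 0 lower and 5 higher (3.65% and 8.67%). The tight junction gene Cldn5 kept 2857 and 3836 counts in the dura mater against 18081 and 17419 in brain ECs. The 43 genes were at single counts or none in the dura mater, as the rule requires. By their known roles they spread over mitochondria, genome maintenance, metabolic and protein-modifying enzymes, kinases, transcription, the centrosome and cilium, the cell surface and membrane traffic. These classes were made after the genes were known.

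Together the 43 genes held 22248 counts in brain replicate 1 and 20678 in brain replicate 2, against 33 and 13 in the dura mater libraries. That is 0.152% ± 0.00287 of counts in brain ECs (SD, n = 2) against 0.000162% ± 0.000115 for the dura mater. In the dura mater, 24 genes had 0 counts in both libraries, 11 were counted in replicate 1 only, 6 in replicate 2 only and 2 in both. The highest dura mater count was 7, which is 0.522 CPM (counts scaled to the adjusted library size). The median log2 fold change (dura mater over brain, edgeR) was −7.65, and it ranged from −9.46 to −4.34. With the 24 genes at 0 set to their lower bound, the median was −8.36. Over all 9347 genes tested the median was −0.01. In bulk RNA, fewer cells that make a transcript and less of it per cell cannot be told apart.

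**Figure D1:**
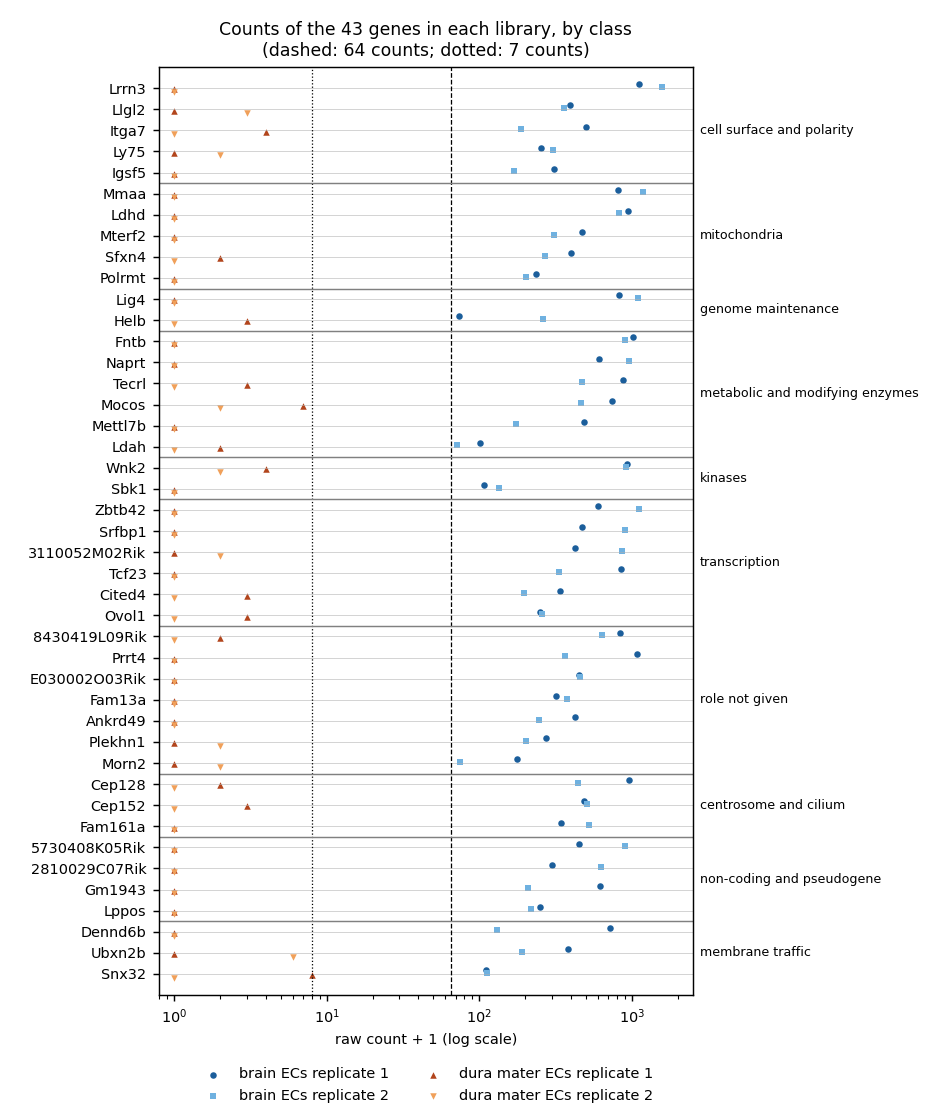
Raw count plus 1 (log scale, x axis) of each of the 43 genes (y axis) in the 4 libraries, 1 marker per library, with genes grouped by class. Markers of brain ECs lie at or above the dashed line of 64 counts and those of dura mater ECs at or below the dotted line of 7 counts, as the choice of the genes requires, and 24 genes have both dura mater markers at 0 counts.

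In the edgeR test, 0 of the 43 passed at an adjusted p under 0.05, where 17 of 9347 genes (0.182%) passed as lower in dura mater ECs. At an unadjusted p under 0.05 there were 30 of the 43 (2.97% of all genes, lower), and DESeq2 called 37 (3.65% of the 10220 genes with an adjusted p, lower, and 12.3% in either direction). With the replicate block 0 of the 43 passed (0.974% of all genes, lower). That brain ECs lay above dura mater ECs without overlap was fixed by the rule for all 43 (16.9% of all genes). Since these tests use the contrast that chose the genes, nothing is read from the counts. The lowest edgeR adjusted p among them was 0.144 (Lrrn3) and the highest 0.809 (Snx32).

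Symbols at 64 or more counts in one library and at 7 or fewer in its replicate were common within each tissue. Of the 6700 symbols at 64 or more in brain replicate 1, 1282 (19.1%) had 7 or fewer in brain replicate 2, and 1290 of 6608 (19.5%) the other way round. In the dura mater, 2800 of the 9835 symbols at that level in replicate 2 (28.5%) had 7 or fewer in replicate 1, and 410 of 7281 (5.63%) the other way round. The part of this switching in the 43 genes was not tested.

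The 5096 symbols at 64 or more counts in both brain libraries show how rare their pattern was. In the dura mater 4266 of them (83.7%) were at 64 or more in both libraries too. Another 562 had 7 or fewer counts in dura mater replicate 1 and 64 or more in replicate 2, and 19 (0.373%) the reverse. Only 47 (0.922%) had 7 or fewer in both. Dura mater replicate 2 thus set most of the boundary, since 653 of the symbols had 7 or fewer counts in replicate 1 but 67 in replicate 2.

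**Figure D2:**
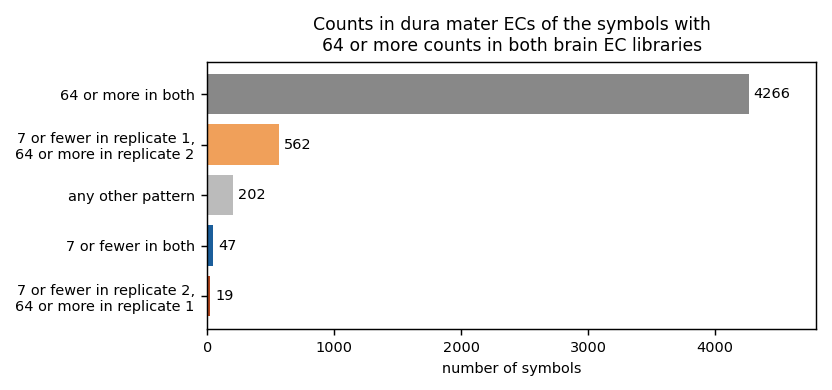
Number of symbols (x axis) by their counts in the 2 dura mater EC libraries (y axis), for the 5096 symbols with 64 or more counts in both brain EC libraries. The bar of 47 symbols with 7 or fewer in both holds the 43 genes and the 4 left out by name, and the bar of 562 holds those missed by dura mater replicate 1 alone.

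Leaving out dura mater replicate 2 raised the number of genes that met the cutoffs from 43 to 620. Without dura mater replicate 1 it was 63. With brain replicate 1 or 2 left out it was 172 or 189. Each of these larger sets contained the 43 genes, as the rule requires.

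**Figure D3:**
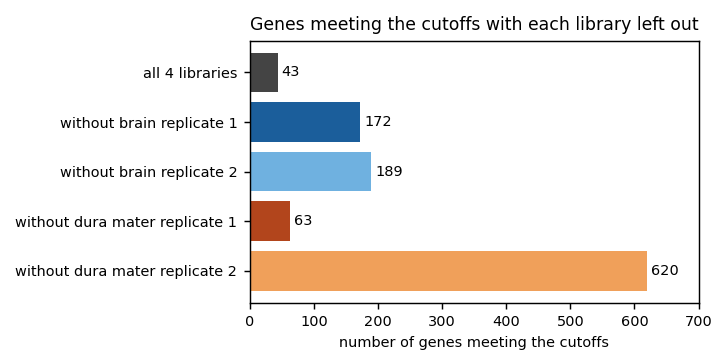
Number of genes that meet the count cutoffs (x axis), with the families named above left out, when all 4 libraries or any 3 of them are used (y axis). The bar without dura mater replicate 2 reaches 620 genes, against 43 with all 4 libraries.

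Genes of mitochondria made up 5 of the 43, and 4 of them had no count in the dura mater. Mmaa, which loads the vitamin B12 cofactor onto methylmalonyl-CoA mutase (chromosome 8, 79263598 to 79294937, minus strand, GRCm38), had 806 and 1178 counts in the brain libraries, or 72.3 ± 23.6 CPM (SD, n = 2). It had 0 counts in both dura mater libraries, so it was at least 709-fold higher in brain ECs when 3 counts are allowed over the dura mater group. Such bounds, here and below, cover counting error only and not the spread between libraries. Ldhd, which oxidizes D-lactate (chromosome 8, 111623785 to 111630374, minus strand), had 947 and 819 counts in brain ECs against 0 and 0 in the dura mater, at least 631-fold higher. Polrmt, the RNA polymerase that transcribes mitochondrial DNA (chromosome 10, 79736123 to 79746581, minus strand), had 236 and 202 counts against 0 and 0, at least 157-fold. Mterf2, a protein that binds mitochondrial DNA, had 473 and 306 against 0 and 0. Sfxn4, a protein of the inner mitochondrial membrane, had 400 and 269 against 1 and 0. The brain libraries were within 2-fold of each other for these 5 genes.

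Both genes of genome maintenance act on broken or stalled DNA. Lig4, the ligase that seals breaks in non-homologous end joining (chromosome 8, 9969049 to 9977686, minus strand), had 822 and 1097 counts in brain ECs, 69.8 ± 18.5 CPM, against 0 and 0 in the dura mater, at least 686-fold lower there. Helb, a DNA helicase, had 73 and 262 counts in brain ECs against 2 and 0 in the dura mater. Its lower brain count lay close to the cutoff of 64, and the brain libraries differed more for Helb than for Lig4.

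The enzymes were led by Fntb, the beta subunit of farnesyltransferase, which attaches a lipid to Ras proteins and lamins (chromosome 12, 76765589 to 76921412, plus strand). Its counts were 1013 and 907 in brain ECs, 69.2 ± 0.937 CPM, against 0 and 0 in the dura mater, at least 686-fold lower there. Naprt, which turns nicotinic acid into a precursor of NAD (chromosome 15, 75890956 to 75894481, minus strand), had 609 and 959 counts against 0 and 0. Mettl7b, a methyltransferase, had 482 and 174 against 0 and 0. The other 3 kept single counts in the dura mater. Tecrl, a relative of the fatty acid elongation enzyme Tecr, had 874 and 467 counts against 2 and 0. Mocos, which completes the molybdenum cofactor of xanthine dehydrogenase and aldehyde oxidase, had 739 and 464 against 6 and 1, a 184-fold difference (95% counting interval 89.2 to 459). Ldah, a hydrolase on lipid droplets, was the weakest of the 43 in brain ECs, at 100 and 71 counts against 1 and 0.

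Lrrn3, a leucine-rich repeat membrane protein best known from neurons, had the most counts of the 43 (chromosome 12, 41451668 to 41486431, minus strand). It had 1117 and 1574 counts in brain ECs, 98.0 ± 29.6 CPM, against 0 and 0 in the dura mater. That is at least 962-fold lower there when counting error alone is allowed for. The other genes of the cell surface and of polarity were lower in count. Itga7, an integrin subunit that binds laminin, had 501 and 186 counts against 3 and 0, and Llgl2, a protein of basolateral polarity, had 395 and 356 against 0 and 2. Ly75, an endocytic receptor of dendritic cells and epithelia, had 251 and 305 against 0 and 1. Igsf5, an immunoglobulin-family protein of cell junctions, had 309 and 168 against 0 and 0. The brain libraries differed by under 2-fold for all of these except Itga7.

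The kinases were Wnk2 and Sbk1. Wnk2, of a family that regulates ion cotransporters (chromosome 13, 49036303 to 49148014, minus strand), had 924 and 909 counts in brain ECs, 66.2 ± 3.51 CPM, against 3 and 1 in the dura mater, a 492-fold difference (95% counting interval 192 to 1806). Sbk1 was near the lower end, with 107 and 134 counts against 0 and 0.

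Genes of transcription numbered 6. Zbtb42, a zinc finger repressor (chromosome 12, 112678828 to 112682747, plus strand), had 596 and 1117 counts in brain ECs, 62.8 ± 30.6 CPM, against 0 and 0. Srfbp1, which binds serum response factor, had 469 and 904 against 0 and 0. Tcf23, a helix-loop-helix protein, had 846 and 333 against 0 and 0. The symbol 3110052M02Rik, now named Zfp983, had 426 and 861 against 0 and 1. Cited4, which binds the coactivators CBP and p300, had 337 and 195 against 2 and 0, and Ovol1, a zinc finger repressor known from epithelia, had 249 and 256 against 2 and 0. The forkhead, SOX and ZIC factors were outside the rule by name, and none of them had met its count cutoffs.

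The centrosome and cilium held Cep128, Cep152 and Fam161a. Cep128, a protein of centriole appendages, had 957 and 445 counts in brain ECs against 1 and 0 in the dura mater. Cep152, a scaffold for centriole duplication, had 484 and 507 against 2 and 0, and Fam161a, a protein of the ciliary base, had 343 and 521 against 0 and 0. Membrane traffic held Dennd6b, an activator of Rab GTPases, Ubxn2b, an adaptor of the ATPase Vcp, and Snx32, a sorting nexin. Dennd6b showed the widest gap between brain libraries of all 43, with 719 and 129 counts (5.09-fold in CPM) against 0 and 0. Ubxn2b had 379 and 191 against 0 and 5. Snx32 had 109 and 111 against 7 and 0, a 33.7-fold difference (95% counting interval 16.1 to 84.8).

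For 7 protein-coding genes no role is given. Prrt4 (1073 and 363 counts in brain ECs), Fam13a (319 and 373), Ankrd49 (423 and 245) and E030002O03Rik, now named Olfm5 (448 and 456), had 0 counts in the dura mater. The symbol 8430419L09Rik, now named Fam234b, had 834 and 640 counts against 1 and 0, Plekhn1 had 272 and 201 against 0 and 1, and Morn2 had 177 and 74 against 0 and 1. The non-coding genes 2810029C07Rik (298 and 622 counts) and Lppos (250 and 218) and the pseudogene Gm1943 (616 and 207) had 0 counts in both dura mater libraries. So did 5730408K05Rik (446 and 902), which was classed with them although it was not found in GENCODE M21 and its gene type is not given there. A pseudogene can share reads with its parent gene, so Gm1943 is uncertain.

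Within brain ECs the 43 genes were counted at a modest level. Their mean ranged from 6.13 to 98.0 CPM with a median of 29.7 CPM, and 42 of the 43 lay below the median of the 5096 symbols at 64 or more counts in both brain libraries, 84.2 CPM. The CPM of a 3′ end library is not divided by transcript length. The median gap between the brain libraries was 1.58-fold for the 43 genes and 1.78-fold for the 5096 symbols. Of the 43, 30 (69.8%) were within 2-fold, beside 57.8% of the 5096. Brain replicate 1 was the higher library for 24 genes and replicate 2 for 19, as a share of library counts.

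**Figure D4:**
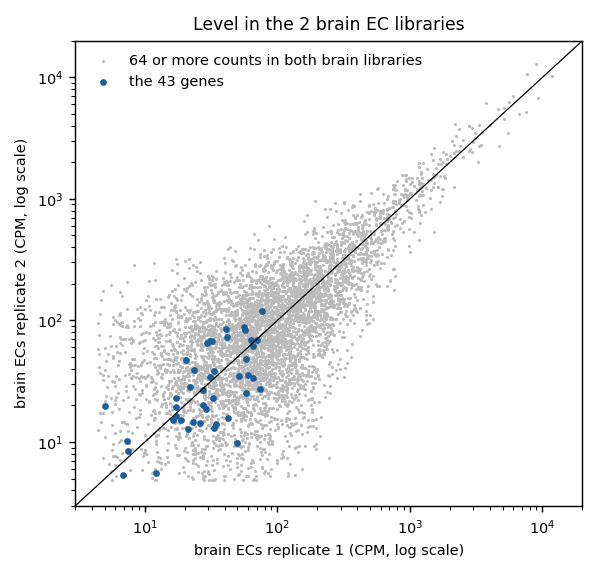
CPM in brain EC replicate 1 (x axis) against replicate 2 (y axis), both on log scales, with the line of equal values. Grey points are the 5096 symbols at 64 or more counts in both brain libraries and blue points the 43 genes, which lie between means of 6.13 and 98.0 CPM at the low end of the cloud.

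At the edges of the rule the values ran on without a gap. The members nearest to the brain cutoff were Ldah (71 counts in brain replicate 2), Helb (73 in replicate 1) and Morn2 (74 in replicate 2), and those nearest to the dura mater cutoff were Snx32 (7 in replicate 1), Mocos (6 in replicate 1) and Ubxn2b (5 in replicate 2). Just outside on the dura mater side were 0610010B08Rik (82 and 184 counts in brain ECs against 2 and 8 in the dura mater), Rmi1 (830 and 703, 9 and 5) and Def6 (425 and 881, 9 and 8). Just outside on the brain side were Dhx58 (61 and 523, 2 and 1), Wdr59 (964 and 52, 0 and 0) and Commd6 (399 and 41, 1 and 7).

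Many of the proteins work with a known partner or have a close relative, so 70 such genes of 24 members were read beside them. These were chosen by role after the 43 were known. Of the 70, 48 were tested, 0 passed in edgeR (0.61% of all genes), and their median log2 fold change was −0.15. DESeq2 called 1 lower and 3 higher in the dura mater, beside 3.65% and 8.67% of all genes. At an unadjusted edgeR p under 0.05 were 2 of the 48, both higher in the dura mater (7.04% of all genes). The direction of their members was fixed by the rule. Stk39, a kinase activated by WNK kinases such as Wnk2, had 1 and 0 counts in brain ECs against 1477 and 112 in the dura mater (log2 fold change 8.40, edgeR adjusted p 0.416). Gphn, which acts in the synthesis of the cofactor that Mocos completes, had 1 and 0 against 1102 and 141 (log2 fold change 8.03, edgeR adjusted p 0.466). At 64 or more counts in both dura mater libraries stood 33 of the 70, and 15 were at 7 or fewer in every library.

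Fnta, the alpha subunit without which Fntb has no activity, had 3074 and 2147 counts in brain ECs against 1213 and 3113 in the dura mater (log2 fold change −0.41, edgeR adjusted p 1.00). Itgb1, the beta subunit that pairs with Itga7, had 14312 and 9468 against 15639 and 18107. Mut, the mutase served by Mmaa, had 2358 and 839 against 296 and 745, and Xdh, which needs the cofactor completed by Mocos, had 3654 and 5015 against 811 and 3344. These partners were counted in both tissues, and the ranges of Fnta overlapped. Brain ECs lay above dura mater ECs without overlap for Mut and Xdh, as they did for 16.9% of all genes. For Itgb1 they lay below without overlap, and the share of all genes in that direction was not counted. None of these partners passed in edgeR.

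The partners of Lig4 and Polrmt were counted unevenly within a tissue. Prkdc, the kinase of end joining, had 810 and 1 counts in brain ECs against 360 and 115 in the dura mater, and Nhej1 had 0 and 284 against 0 and 0. Xrcc4, which binds Lig4, had 0 and 0 against 17 and 0. Lig1, the replicative ligase, was counted throughout, at 1152 and 938 against 1334 and 1404. Of the factors that work with Polrmt, Tfam had 0 and 249 counts against 0 and 357, Tfb2m 389 and 97 against 6 and 207, and Tefm 129 and 0 against 0 and 0. Polrmt and these factors are used by every cell with mitochondrial transcription. A listed count of 0 is therefore not read as absence of the protein.

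Relatives of several members were counted in both tissues. Wnk1 had 3161 and 2705 counts in brain ECs against 2938 and 1704 in the dura mater, while Wnk3 and Wnk4 had at most 1 count in any library. Llgl1 had 5271 and 2584 against 1123 and 3648, Snx5 1220 and 1274 against 764 and 1001, and Tecr 985 and 695 against 874 and 1487. Nampt, which makes NAD from nicotinamide, had 1483 and 2414 against 1591 and 951. Ldha, the L-lactate dehydrogenase subunit, had 6740 and 5649 against 5186 and 4952. For Cep152, the duplication factors Plk4 and Stil had 0 counts in each library, and Cep63 had 0 and 48 against 1 and 268.

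**Figure D5:**
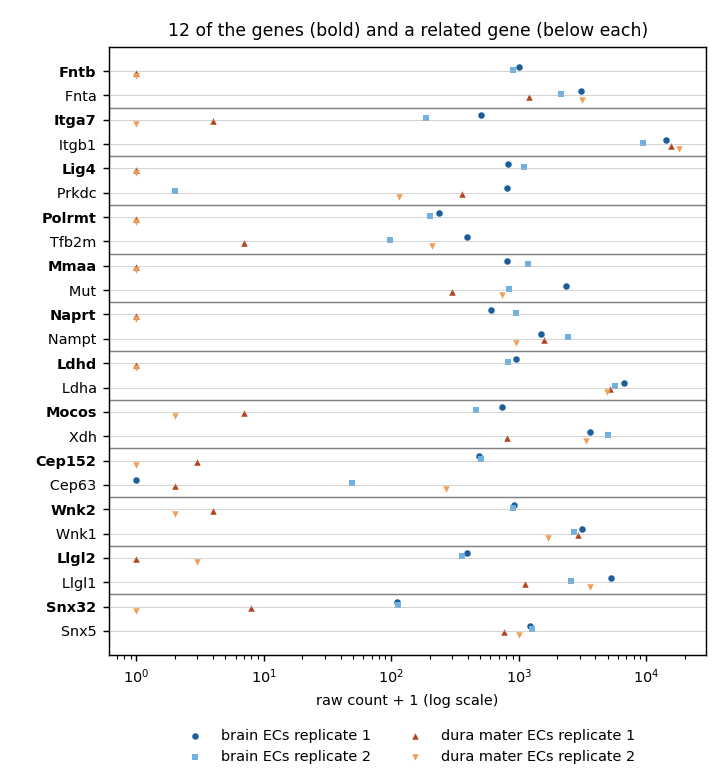
Raw count plus 1 (log scale, x axis) of 12 of the genes (bold names) and of a partner or relative below each (y axis), 1 marker per library. Fnta, Itgb1, Mut, Nampt, Ldha, Xdh, Wnk1, Llgl1 and Snx5 have 64 or more counts in the 4 libraries, while Prkdc, Tfb2m and Cep63 fall to 6 or fewer in at least 1.

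Gene families defined by symbol held 16 of the 43. Cell adhesion and junction proteins held 3 members (Lrrn3, Itga7 and Igsf5). Of the 97 tested in this family 2 fell (Cldn5 and Lsr) and 1 rose (Icam1) in dura mater ECs (edgeR, adjusted p under 0.05). Over all genes 0.182% fell and 0.428% rose. More of this family were higher than lower at an unadjusted p under 0.05 (9 lower, 21 higher) and in DESeq2 (11 lower, 22 higher). Kinesins, cilia and centrosome proteins held 2 (Cep128 and Cep152), with 0 of 179 passing. At an unadjusted p under 0.05 were 6 lower and 10 higher, where 2.97% and 7.04% of all genes were. DESeq2 called 5 lower and 17 higher, beside 3.65% and 8.67% of all genes. Protein kinases held 1 (Wnk2), with 0 of 180 passing, 6 lower and 11 higher at an unadjusted p under 0.05, and 10 lower and 15 higher in DESeq2. Among 254 small GTPases and their regulators, which held Dennd6b, 1 rose (Rnd1), and among 353 zinc finger proteins, which held Zbtb42, 1 rose (Zfp36). The GTPase family had 12 lower and 18 higher at an unadjusted p under 0.05, and 13 lower and 25 higher in DESeq2. For zinc finger proteins these were 3 lower and 24 higher, and 16 lower and 34 higher. Numbered clones and predicted genes held 6 members, and of 389 tested 1 fell (Gm694). Unadjusted, 12 were lower and 18 higher, and DESeq2 called 32 lower and 37 higher. Genes named Fam or as numbered membrane proteins held 2 (Fam161a and Fam13a), and of 275 tested 2 fell (Mal and Itm2a) and 1 rose (Tspan7). Unadjusted, 15 were lower and 25 higher, and DESeq2 called 19 lower and 31 higher.

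Markers of other brain cells did not hold any of the 43, but few of them could meet the rule. At 64 or more counts in both brain libraries stood 1 of 10 neuron, 2 of 10 astrocyte and 3 of 9 pericyte and smooth muscle genes. None of the oligodendrocyte, microglia, fibroblast or leukocyte genes did, while 5 of 6 erythroid genes did. Over all such symbols 0.922% met the cutoffs, so nothing is read from the absence of members. The neuron list summed to 142 and 187 CPM in brain ECs and 295 and 173 CPM in dura mater ECs, most of it in the brain libraries from Stmn2 (2042 and 2239 counts), and 4 and 5 of its 10 genes were at 0 in the brain libraries. The astrocyte list summed to 265 and 309 CPM against 1293 and 705 CPM, and its marker Aqp4 was at 0 in each library. The oligodendrocyte list summed to 102 and 5.37 CPM against 163 and 51.8 CPM, with Mag, Mobp and Olig2 at 0 in each library. The microglia list summed to 159 and 50.1 CPM against 49.4 and 37.5 CPM, with P2ry12 and Sall1 at 0 in each library. Pericyte and smooth muscle genes summed to 691 and 1075 CPM against 1188 and 675 CPM, and fibroblast genes to 7.38 and 50.7 CPM against 337 and 354 CPM. Ependyma and choroid plexus genes summed to 146 and 21.2 CPM against 1865 and 1034 CPM, lymphatic genes to 123 and 145 CPM against 433 and 614 CPM. Leukocyte genes summed to at most 95.6 CPM, in brain replicate 1. The erythroid list was higher in both brain libraries, at 18013 and 25692 CPM against 1496 and 762 CPM, and 3 of its 5 tested genes fell in dura mater ECs (edgeR). The part of red cell RNA in the counts of the 43 genes was not tested.

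By position, 42 of the 43 were found in GENCODE M21 (GRCm38), 3 of the 43 under a newer symbol, and 39 were protein coding. They lay on 16 chromosomes, with 6 on chromosome 12 and 5 on chromosome 10. Exons of 17 overlapped those of another gene, on the opposite strand for 12 and on the same strand for 5. Whether reads were counted by strand is not given in the sources used here, so the counts of these genes are uncertain.

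Itga7 and Mettl7b are one such pair. They meet tail to tail on chromosome 10, where their last exons overlap by 9 bases, and their counts ran alike, at 501 and 186 for Itga7 and 482 and 174 for Mettl7b in brain ECs. Whether these are separate signals cannot be told apart in these counts. For 8 members the overlapping gene had 64 or more counts in at least 1 dura mater library while the member had 7 or fewer. Ldhd shares 42.2% of its exon length with Znrf1, which had 7292 and 1460 counts in brain ECs against 967 and 879 in the dura mater. Naprt shares 11.8% with Eef1d, which had 2422 and 15 counts against 1243 and 1583, and Snx32 shares 13.2% with Cfl1, at 10734 and 11376 against 14422 and 19235. Fntb shares 6.45% with Churc1 (456 and 1 counts against 5 and 175), and Mterf2 22.7% with Tmem263 (727 and 810 against 507 and 844). Without the 17 overlapping genes, 26 of the 43 remained.

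Promoters were read from RefSeq (GRCm38.p6) as the 300 bases from 250 before to 50 after each start, on both strands, for the 31 members with an entry (38 windows). The letters CTTTGAA or CTTTGAT, bound by the TCF/LEF factors of Wnt signaling, stood in 1 of the 38 windows (2.63%), beside 8.65% of all 32851 promoter windows and 5.48% of the 5147 windows of symbols at 64 or more counts in both brain libraries. That one is in Polrmt. The ETS core CCGGAA, read by a factor family active in ECs and in most other cells, stood in 14 windows (36.8%), beside 14.9% of all and 28.3% of the brain-counted ones. GGGCGG, the GC box, stood in 47.4%, beside 35.7% and 66.1%. TATAAA, the TATA box, stood in 13.2%, beside 13.6% and 7.09%, and the forkhead letters TGTTTAC in 0 windows, beside 3.65% and 2.39%. The ratio of observed to expected CG pairs was above 0.6 in 60.5% of the windows, beside 35.8% of all and 74.1% of the brain-counted ones. A match is a description of letters and not a bound site. Shown here are the Polrmt window with the TCF/LEF letters and the ETS match of the 3 members of highest CPM that hold one, as 30 bases on the gene's strand, 5′ to 3′, with the motif in capitals. ATCAAAG and TTCCGG are CTTTGAT and CCGGAA read from the opposite strand, and Lig4 is shown at the start that lies farther upstream.
Polrmt (chr10:79746770-79746799, minus strand, TCF/LEF): gaaaccagtcaATCAAAGaacaaaaaaata
Lig4 (chr8:9977821-9977850, minus strand, ETS): gcagcctccacTTCCGGctcgcgcgcggtg
Cep128 (chr12:91384551-91384580, minus strand, ETS): tagccagtttcTTCCGGgaaaggcaagtag
Tecrl (chr5:83355309-83355338, minus strand, ETS): gattactgtatCCGGAActgggagataata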

How the data were processed

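The data were 4 tables of raw counts, 1 per library, deposited by the authors, each pairing symbols with whole numbers. The methods name TopHat for mapping and cufflinks for differential expression, while the submitters' processing notes name Bowtie2, edgeR and mm10. The counting step, annotation and use of strand or molecular identifiers are not given in the sources used here. Groups and replicate numbers came from the sample titles. Nothing says that the libraries came from separate mice, so p-values measure the spread between libraries, which may be technical.

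All genes were fitted in edgeR 4.0.16 (R 4.3.3) and tested by quasi-likelihood, with TMM scaling, filterByExpr, tissue as the only term, a prior count of 2 and Benjamini-Hochberg adjustment. It replaced cufflinks, which needs alignments. DESeq2 1.42.0 and limma 3.58.1 were alternatives. Scripts were tested on simulated data. A pass was required only for edgeR, at a spread between libraries below that of these data. CPM are counts over the TMM-adjusted library size. Folds of genes without dura mater counts are lower bounds against 3 counts over the group, others carry an exact binomial interval. Intervals and lower bounds cover counting error only. They leave out the spread between libraries, which was wide (common coefficient of variation 1.39 in edgeR), so they do not bound the difference between tissues. At this depth 3 counts are 0.186 to 0.222 CPM of the unadjusted totals.

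The cutoffs, the gene lists and the tests were chosen with earlier results of these data known. By the rule for names, each of the 43 genes was named, with all counts for those of highest CPM, in a list or family, or at a cutoff. Other values, the classes and the partners were chosen after the values were seen. No symbol of the 43 stood on more than 1 line. The alternatives were other cutoffs, scalings, filters and tools, a replicate block and each library left out.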

Additional observations from a re-analysis of the deposited data

How the results depend on the processing

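The number of genes meeting the rule stayed between 36 and 56 with stricter (3 counts at most in the dura mater) or looser cutoffs (15 at most), scaled or thinned libraries, summed lines or no family left out, and with a library left out it ranged from 63 to 620 (620 without dura mater replicate 2). Leaving out genes that overlap another gene, chosen after seeing the data, gave 26 genes, 0.0994% of brain counts and a median log2 fold change of −7.82. The share of brain counts was 0.142% without Lrrn3, and 0.150% to 0.154% with a brain library left out. The median log2 fold change moved most with the handling of 0 counts, to −9.42 at a prior count of 0.5 and −10.60 in DESeq2, and was −7.49 with the replicate block and −7.82 to −7.40 with a library left out. Of all genes, 57 differed in edgeR (40 higher and 17 lower in dura mater ECs). Without a filter 326 did (195 higher and 131 lower), with 10 counts in every library 141 (75 and 66), with the replicate block 224 (133 and 91), in DESeq2 1259 (886 and 373), in limma-voom 80 (40 and 40), and 80 to 740 with a library left out (740 without brain replicate 1, 701 without brain replicate 2, 97 without dura mater replicate 2). Libraries that share a replicate number did not deviate alike (pairing correlation over genes −0.0208), and no label ties a number to an animal. Of the 43 genes, 0 passed in edgeR, also with the block, 6 without a filter and 37 in DESeq2, and with a library left out 0 to 10 passed (10 without brain replicate 1, 8 without brain replicate 2). With 10 counts in every library none of the 43 could be tested. None of the 43 changed direction under any alternative, an outcome that the count cutoffs had fixed in advance. A count of 7 or fewer in the dura mater is not absence, since many symbols moved between that range and 64 or more counts from one replicate to the other.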
